A study of Danio rerio with 10 samples.

Results

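The Sm core protein genes encode the ring of Sm proteins that sits on spliceosomal RNAs, and their transcripts were followed here in zebrafish embryos homozygous for the fn10a allele. The 7 genes searched were snrpb, snrpd1, snrpd2, snrpd3, snrpe, snrpf and snrpg, of 14563 gene symbols in the tables. Records with the gene's own symbol were found for 6 of them. The remaining gene, snrpg, was taken from records listed as zgc:103688, because the accession NM_001004660 of one of them belongs to snrpg in the RefSeq gene table. Those records differed by at most 2 reads in any library, and the one with more reads, NM_001167901, was used. The record used has no entry of its own in the RefSeq gene table, and the position and length given for snrpg are those of that record.

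Polyadenylated RNA was sequenced from TL-strain embryos at 36 hours post fertilization. Mutants (fn10a-/-) and siblings came from crosses of fn10a heterozygotes, the siblings pooling fn10a+/- and +/+ embryos, and wild-type controls came from crosses between TL fish, so that mutants and siblings share a kind of cross and controls do not. Each of the 3 whole-embryo groups had 2 strand-specific libraries of 30 embryos each, and mutants and siblings also gave 1 unstranded nuclear and 1 unstranded cytoplasmic library. The labels name the allele only; from knowledge of the study it lies in the gene eftud2, whose protein is the U5 particle's GTPase. A whole-embryo sample mixes all cell types and gives a transcript's share of the polyadenylated RNA, so fewer cells of a type and less RNA per cell cannot be told apart.

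Splicing is carried out by small nuclear ribonucleoproteins, each a short RNA with its own proteins. The U1, U2, U4 and U5 RNAs, and their counterparts for the minor class of introns, each carry the same ring of Sm proteins. The ring is built in the cytoplasm from preformed pieces, the B-D3 pair, the D1-D2 pair and the E-F-G trio. The SMN complex closes these pieces around the RNA, after which the RNA's cap is modified and the particle returns to the nucleus. One copy of each Sm protein is used in each of these rings, so they need the proteins, rather than the transcripts of each gene, in equal number.

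The libraries listed 34060890 to 82752349 reads in whole embryos and 7164408 to 19195327 reads in fractions. Every member had reads in all 10 libraries, between 1205 (snrpd3, the second control library) and 30044 (snrpd2, the first mutant library) in whole embryos. In the fractions the lowest count was 724 reads (snrpd3 in the sibling nucleus). Markers of neurons, muscle, blood, epidermis, notochord and heart were detected in each whole-embryo library. The muscle actin actc1b stood at 2480 to 2720 RPKM in the libraries numbered 1 and at 147 to 331 RPKM in those numbered 2, a split by replicate number that runs through the tables. The embryonic globin hbae3 was lower in mutants (834 and 950 RPKM) than in siblings (2176 and 1943 RPKM) and controls (1315 and 2275 RPKM), and the keratin krt4 was higher in mutants (6226 and 5961 RPKM) than in siblings (5456 and 4719 RPKM) and controls (4589 and 4663 RPKM). The heart gene myl7 stood at 30.1 and 11.04 RPKM in mutants, 19.7 and 6.18 RPKM in siblings and 23.6 and 8.66 RPKM in controls. The collagen gene col2a1a stood at 83.9 and 122 RPKM in mutants, 70.4 and 82.5 RPKM in siblings and 43.4 and 91.1 RPKM in controls. The neuronal gene elavl3 stood at 86.8 and 16.9 RPKM in mutants, 108 and 20.2 RPKM in siblings and 123 and 28.5 RPKM in controls. Within each replicate number, hbae3 and elavl3 were lower in mutants than in both other groups, and krt4, myl7 and col2a1a higher. The part of this tissue makeup in the ring genes' values was not tested. The transcript of eftud2 stood at 11.3 and 3.60 RPKM in mutants, 28.1 and 9.91 RPKM in siblings and 30.2 and 10.5 RPKM in controls, and it fell by 1.35 on the log2 scale against siblings (adjusted p = 0.0183, edgeR).

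The ring genes were higher in mutants than in siblings, by factors that differed between members. Fitted increases ran between 1.54-fold for snrpb and 3.67-fold for snrpg, and the median over the members was a log2 fold change of 1.51, against a median of 0.00 over all 10147 genes tested. In the edgeR quasi-likelihood fit with the replicate number as a term, 6 of 7 members rose (adjusted p under 0.05 over all genes), where 1.16% of all genes tested rose and 0.581% fell, and snrpb did not pass. The members were chosen with earlier results of these data known, so this count is a description of the set, and differences between members were not tested. Without the replicate term edgeR passed 0 of 7 members and 0 of 10147 genes. In that fit the members' adjusted p-values were 0.319 or more, 6 of 7 members and 534 of all genes had an unadjusted p under 0.05, and the members' median was 1.53. DESeq2 with the replicate term passed all 7 members, where it passed 6.08% of all genes as higher.

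The calls, of members and of all genes alike, depended on which libraries were fitted. A fit of the mutant and sibling libraries alone passed 7 of 7 members, where 22.2% of all genes passed. Leaving out either sibling library, or the second mutant library, left 0 of 7 members past the threshold in edgeR, with 6 of 7 at an unadjusted p under 0.05. In those 3 fits 0 of 10147 genes passed, and 923, 769 and 1068 genes had an unadjusted p under 0.05 without the first sibling, second sibling and second mutant library. Leaving out the first mutant library left 4 members, where 0.818% of all genes passed. Leaving out either control library gave 7 members in a fit that passed far more genes, 22.0% of all without the first and 21.4% without the second. Each member's fitted log2 fold change stayed above 0 in each of those fits. Where only 2 libraries stand against 2, an exact permutation test of one gene cannot give a two-sided p below 0.333.

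**Figure D1:**
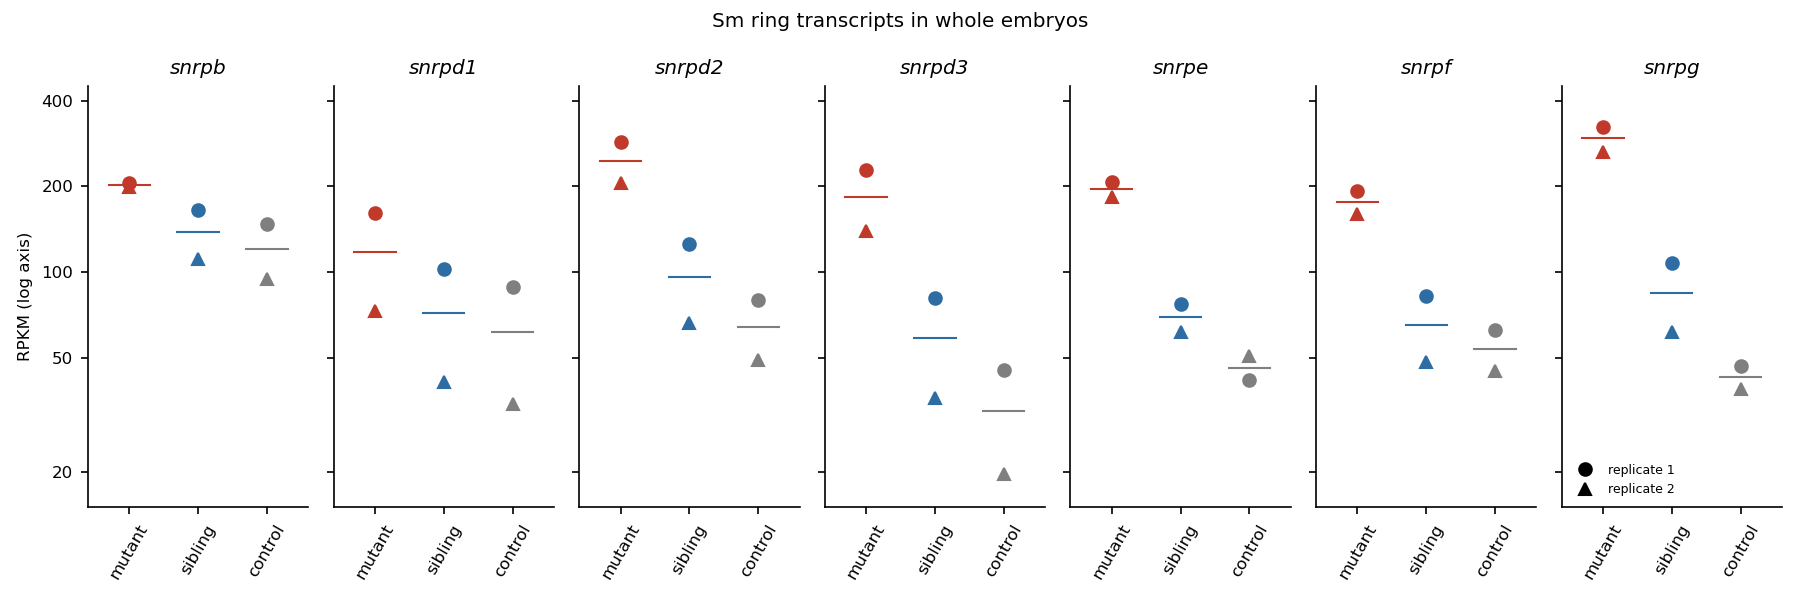
RPKM of the 7 Sm ring transcripts (vertical log axis) in each whole-embryo library of mutants, siblings and wild-type controls; circles are replicate 1, triangles replicate 2, and bars the mean of both. Both mutant points lie above both sibling points for each gene other than snrpd1, whose second mutant library (73.2 RPKM) lies below the first sibling library (103 RPKM).

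Within the B-D3 pair the partners moved by different amounts. The gene snrpb encodes SmB, which has a long proline-rich tail. Its gene lies on the minus strand of chromosome 6, 57428411 to 57435485 (danRer7, as are all positions given). The transcript stood at 205 and 200 RPKM in mutants, 165 and 111 RPKM in siblings and 148 and 94.5 RPKM in controls. Both mutant libraries were the highest, and siblings and controls overlapped. Its log2 fold change was 0.63 against siblings (SE 0.159, adjusted p = 0.113, edgeR) and 0.77 against controls (adjusted p = 0.0646), neither past the threshold.

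The gene snrpd3 encodes SmD3, whose arginine-glycine tail is methylated before ring assembly. Its transcript (chromosome 8, 31591018 to 31593628, plus strand) stood at 229 and 139 RPKM in mutants, 81.1 and 36.2 RPKM in siblings and 45.6 and 19.6 RPKM in controls. The mutant libraries lay above all others, while siblings and controls overlapped. It rose 3.39-fold against siblings (log2 1.76, SE 0.144, adjusted p = 0.0139, edgeR) and 5.94-fold against controls (log2 2.57, adjusted p = 0.00596). A ratio of partners within one library needs no scaling between libraries. The RPKM ratio of snrpd3 to snrpb was 1.11 and 0.698 in mutants, 0.492 and 0.325 in siblings and 0.309 and 0.207 in controls. The ratio in mutants was 2.26 times that in siblings between the libraries numbered 1, and 2.15 times between those numbered 2. These ratios leave out snrpd3l, a paralogue of snrpd3 described below. It stood at 112 and 52.1 RPKM in mutants and 86.5 and 40.1 RPKM in siblings. Counted together with snrpd3, it would make the difference between mutants and siblings smaller.

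In the D1-D2 pair, snrpd1 encodes SmD1, the other D protein with a methylated arginine-glycine tail, and snrpd2 its partner without one. The snrpd1 transcript (chromosome 19, 1996215 to 2001156, plus strand) stood at 162 and 73.2 RPKM in mutants, 103 and 41.3 RPKM in siblings and 89.0 and 34.5 RPKM in controls. The groups overlapped, since each library numbered 2 was lower than each numbered 1; within a number, mutants were highest. It rose 1.72-fold against siblings (log2 0.78, SE 0.112, adjusted p = 0.0484, edgeR) and 1.95-fold against controls (adjusted p = 0.0246). The call against siblings was lost in 11 of 18 alternative fits. Its span lies inside that of ptk2.2, on the same strand, which stood at 7.99 RPKM in the first mutant library and 8.90 RPKM in the first sibling library.

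The snrpd2 gene lies on the minus strand of chromosome 18, 39172975 to 39181172. Its transcript stood at 287 and 205 RPKM in mutants, 126 and 66.5 RPKM in siblings and 79.9 and 49.2 RPKM in controls. The mutant libraries were apart from all others and siblings overlapped controls. It rose 2.73-fold against siblings (log2 1.45, SE 0.124, adjusted p = 0.0145, edgeR) and 3.85-fold against controls (adjusted p = 0.00751). The RPKM ratio of snrpd2 to snrpd1 was 1.78 and 2.81 in mutants, 1.22 and 1.61 in siblings and 0.898 and 1.43 in controls, which is 1.45 and 1.74 times higher in mutants than in siblings of the same number.

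Against siblings the E-F-G trio lay closer together than the partners of either pair, at 2.85-fold to 3.67-fold. Against controls the trio ran from 3.28-fold to 6.77-fold, next to 1.95-fold and 3.85-fold for snrpd1 and snrpd2. The snrpe transcript, for SmE (chromosome 11, 38886351 to 38891977, plus strand), stood at 207 and 184 RPKM in mutants, 77.4 and 61.9 RPKM in siblings and 41.8 and 50.7 RPKM in controls, with no overlap between any of the groups. It rose 2.90-fold against siblings (log2 1.54, SE 0.175, adjusted p = 0.0285, edgeR) and 4.19-fold against controls (adjusted p = 0.0113). The snrpf transcript, for SmF (scaffold Zv9_NA880, 19893 to 23233, plus strand), stood at 192 and 160 RPKM in mutants, 82.5 and 48.4 RPKM in siblings and 62.8 and 45.1 RPKM in controls. Mutants were apart from both other groups, which overlapped each other. It rose 2.85-fold against siblings (log2 1.51, SE 0.132, adjusted p = 0.0149, edgeR) and 3.28-fold against controls (adjusted p = 0.00864).

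The snrpg transcript, for SmG (chromosome 23, 34171028 to 34273522, plus strand), stood at 324 and 265 RPKM in mutants, 108 and 61.7 RPKM in siblings and 47.0 and 39.1 RPKM in controls. The 3 groups did not overlap. It rose 3.67-fold against siblings (log2 1.88, SE 0.154, adjusted p = 0.0139, edgeR) and 6.77-fold against controls (log2 2.76, adjusted p = 0.00596). It held rank 51 by fold change among the 10147 genes against siblings and rank 18 against controls. The record's span, far longer than its 593-base transcript, holds the gene cs on the same strand, which stood at 59.2 RPKM in the first mutant library and 67.9 RPKM in the first sibling library. The RPKM ratio of snrpf to snrpe was 0.927 and 0.871 in mutants, 1.07 and 0.782 in siblings and 1.50 and 0.888 in controls. Against siblings it was lower in the mutant library numbered 1 and higher in that numbered 2. Against controls of the same number it was lower in each mutant library. The ratio of snrpg to snrpf was 1.69 and 1.65 in mutants, 1.31 and 1.27 in siblings and 0.748 and 0.868 in controls. The ratio of snrpg to snrpe was 1.56 and 1.44 in mutants, 1.39 and 0.997 in siblings and 1.13 and 0.771 in controls.

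Both mutant libraries were above both sibling libraries for 6 of 7 members, where this held for 6.07% of all genes tested, and above both control libraries for 6 of 7 members, where it held for 8.62%. Member transcripts are short, 538 to 963 bases. The 1110 tested genes with transcripts of up to 963 bases include the 7 members. Among these 1110 genes the median log2 fold change in mutants against siblings was -0.09. In edgeR 19 of them rose (1.71%), and 6 of the 19 were members.

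**Figure D2:**
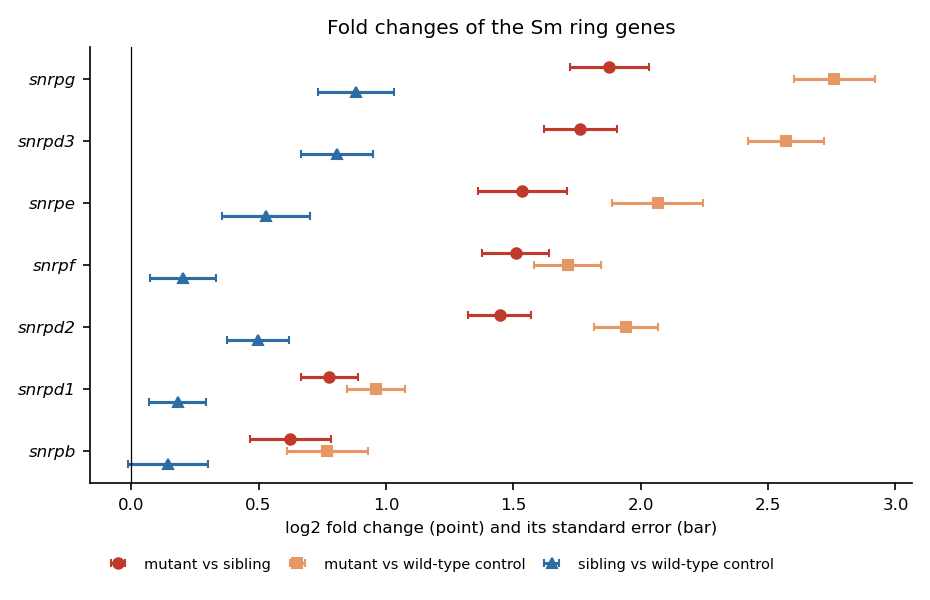
Fitted log2 fold change (point) and standard error (bar) of each ring gene in the 3 whole-embryo comparisons, ordered by mutants against siblings. The mutant comparisons lie at 0.63 to 1.88 against siblings and 0.77 to 2.76 against controls, and siblings against controls at 0.14 to 0.88.

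Against controls, which share the mutant libraries with the comparison above, 6 of 7 members rose, where 1.91% of all genes rose and 1.57% fell. DESeq2 passed 7 of 7, where it passed 8.51% of all genes as higher. The median over the members was a log2 fold change of 1.94, against -0.01 over all genes, and again snrpb was the member that did not pass. Without the replicate term 0 of 7 passed in edgeR, and 6 of 7 had an unadjusted p under 0.05, as did 667 of all genes. Leaving out the second mutant library left 0 of 7 and 7 of all genes, with 7 of 7 members and 1390 of all genes at an unadjusted p under 0.05. Leaving out the first left 5 members, where 1.02% of all genes passed. Leaving out either sibling library left 4, where 0.512% passed without the first and 0.503% without the second, and a fit of the mutant and control libraries alone left 3, where 0.483% passed. Leaving out the first control library gave 7 members with 23.4% of all genes, and leaving out the second 6 members with 17.1%.

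Siblings against controls separates the cross from the homozygous genotype only in part, since siblings include heterozygotes. In edgeR with the replicate term, 0 of 7 members passed and 0.00% of all genes did, while 4 of 7 members and 878 of 10147 genes had an unadjusted p under 0.05. All 7 fitted log2 fold changes were above 0, with a median of 0.50 against 0.00 over all genes. They were 0.88 for snrpg (SE 0.150), 0.81 for snrpd3 (SE 0.142), 0.53 for snrpe, 0.50 for snrpd2, 0.20 for snrpf, 0.18 for snrpd1 and 0.14 for snrpb. Without the replicate term 0 of 7 passed, and 1 of 7 had an unadjusted p under 0.05, with 100 of all genes. DESeq2 passed 2 members, snrpg (adjusted p = 0.00106) and snrpd3 (adjusted p = 0.00305), where it passed 0.325% of all genes as higher. Leaving out the first control library gave 1 member past the threshold, where 4.06% of all genes passed, and leaving out the second gave 2, where 1.31% passed; without the second the fitted value of snrpb was -0.006. Both sibling libraries were above both control libraries for 2 members, snrpe and snrpg, where this held for 5.40% of all genes.

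The makeup of the ring transcripts differed between the genotypes. Summed over the 7 members, RPKM was 1606 and 1227 in mutants, 742 and 427 in siblings and 514 and 333 in controls. The mutant sum was 2.16 and 2.87 times the sibling sum of the same number and 3.13 and 3.69 times the control sum. In whole embryos the transcript with the highest RPKM was snrpb in both sibling and both control libraries, and snrpg in both mutant libraries, where snrpd1 was the lowest. The mutant fractions differed from this. There snrpb was highest in the cytoplasm (371 RPKM, with snrpg at 332 RPKM) and snrpe in the nucleus (226 RPKM). In whole embryos the share of snrpb in the sum was 12.8% and 16.3% in mutants, 22.2% and 26.0% in siblings and 28.7% and 28.4% in controls. The share of snrpd1 was 10.1% and 5.96% in mutants, 13.8% and 9.66% in siblings and 17.3% and 10.4% in controls. These were the members whose share was lower in mutants than in siblings of either number.

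The shares of the other 5 members were higher in whole mutants than in whole siblings of the same number. The share of snrpg was 20.2% and 21.6% in mutants, 14.5% in each sibling library, and 9.15% and 11.8% in controls. The share of snrpd3 was 14.2% and 11.4% in mutants, 10.9% and 8.46% in siblings and 8.87% and 5.88% in controls. For snrpd2, snrpe and snrpf the mean differences were 1.06, 1.49 and 1.29 percentage points, with an SD over the 2 numbers of 0.177, 1.40 and 0.631 points. Against controls these members differed. The share of snrpd2 was higher in mutants (17.86% and 16.74%) than in controls (15.56% and 14.78%). The share of snrpf was lower in mutants (11.97% and 13.07%) than in controls of the same number (12.23% and 13.55%). The share of snrpe was 12.91% and 14.997% in mutants and 8.13% and 15.25% in controls, so higher only in the libraries numbered 1. In all, 13.3% of the ring sum lay in other members in mutants than in siblings, 13.2% by the libraries numbered 1 and 13.5% by those numbered 2. In the fractions the mutant minus sibling difference in the share of snrpd2 was -0.77 points in the nucleus and 1.68 points in the cytoplasm. The ring sum leaves out the paralogue snrpd3l, and no test was made of the shares.

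**Figure D3:**
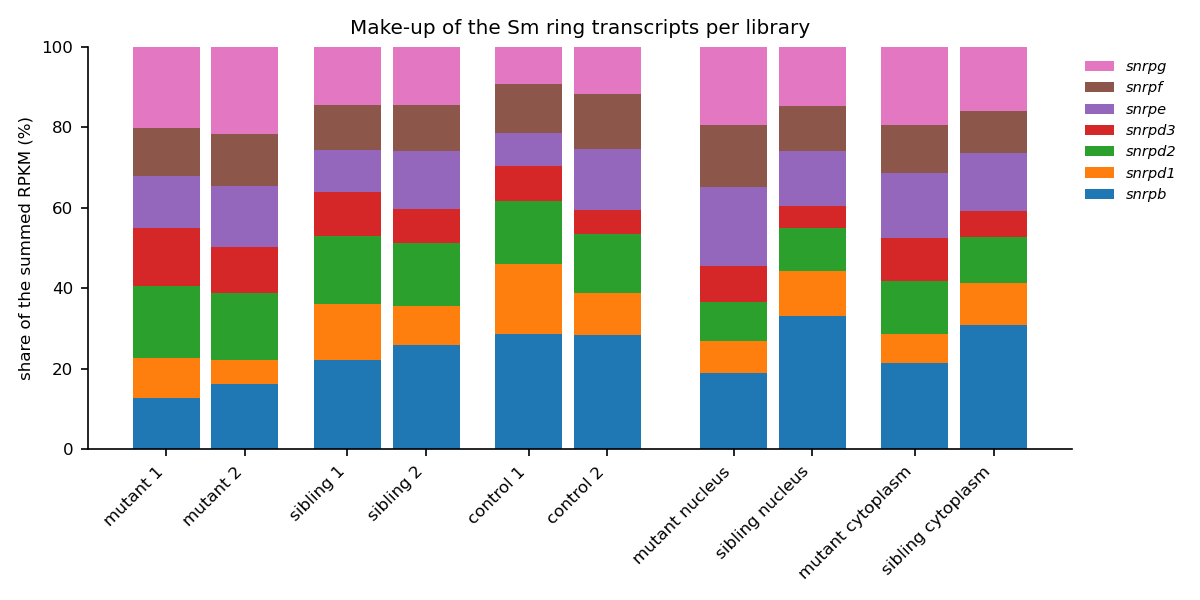
Share of each gene in the summed RPKM of the 7 ring transcripts (vertical axis, percent), per library. The snrpb segment takes 12.8% to 16.3% in whole mutants and 22.2% to 26.0% in whole siblings, and it is also smaller in the mutant fractions than in the sibling fractions.

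The fractions give a measurement from other libraries, with 1 library per genotype and fraction and so no replicate check; differences compare these libraries. In the cytoplasm the ring sum was 1723 RPKM in mutants and 826 RPKM in siblings. The gene snrpd3 stood at 185 RPKM in the mutant cytoplasm (95% exact Poisson interval 180.2 to 190.7, counting error only) and 53.1 RPKM in the sibling cytoplasm (50.2 to 56.0). The gene snrpb stood at 371 RPKM in mutants and 255 RPKM in siblings. On the log2(RPKM + 1) scale the members' differences in the cytoplasm were 0.51 for snrpd1, 0.54 for snrpb, 1.19 for snrpe, 1.25 for snrpd2, 1.30 for snrpf, 1.32 for snrpg and 1.79 for snrpd3, against a median of 0.02 over 8631 genes. Here 5 of 7 members were 1 or more above that median, where 1.49% of all genes were, and the members below were snrpb and snrpd1.

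In the nucleus the ring sum was 1154 RPKM in mutants and 539 RPKM in siblings. The gene snrpd3 stood at 103 RPKM in the mutant nucleus (99.1 to 107.8) and 30.2 RPKM in the sibling nucleus (28.0 to 32.5). The gene snrpe stood at 226 RPKM in the mutant nucleus and 73.9 RPKM in the sibling nucleus, and snrpb at 220 RPKM in the mutant nucleus and 178 RPKM in the sibling nucleus. The log2 differences ran from 0.31 for snrpb to 1.74 for snrpd3, with a median of 1.50. The median over all genes was -0.84, and 7 of 7 members were 1 or more above it, where 7.72% of all genes were. With a pseudocount of 5 in place of 1, 5 of 7 members were, without snrpb and snrpd1, where 1.38% of all genes were. The mutant nuclear library stands apart: 19.2% of the authors' total reads were in the listed records, against 33.5% in the sibling nucleus and 41.8% and 41.7% in the mutant and sibling cytoplasm. In the mutant and sibling nucleus elavl3 stood at 1.82 and 29.1 RPKM, and col2a1a at 19.4 and 258 RPKM. In the mutant and sibling cytoplasm elavl3 stood at 18.8 and 21.4 RPKM, and col2a1a at 188 and 135 RPKM. The markers hbae3 and actc1b were also lower in the mutant nucleus than in the sibling nucleus, and krt4 and myl7 were higher. Scaled by listed reads the members' nuclear median was 2.30, and scaled by TMM 2.74, while the cytoplasmic median was 1.25 and 1.23.

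Ratios between members do not depend on that scaling. The RPKM ratio of snrpd3 to snrpb was 0.469 in the mutant nucleus and 0.170 in the sibling nucleus, and 0.4995 in the mutant cytoplasm and 0.208 in the sibling cytoplasm. The ratio in mutants was thus 2.77 times that in siblings in the nucleus and 2.40 times in the cytoplasm, next to 2.26 and 2.15 times in whole embryos. These ratios, too, leave out snrpd3l. For snrpd2 over snrpd1 the mutant ratio was 1.34 times the sibling ratio in the nucleus and 1.68 times in the cytoplasm. For snrpg over snrpf it was 0.962 times in the nucleus and 1.02 times in the cytoplasm, where whole embryos gave 1.29 and 1.30 times.

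**Figure D4:**
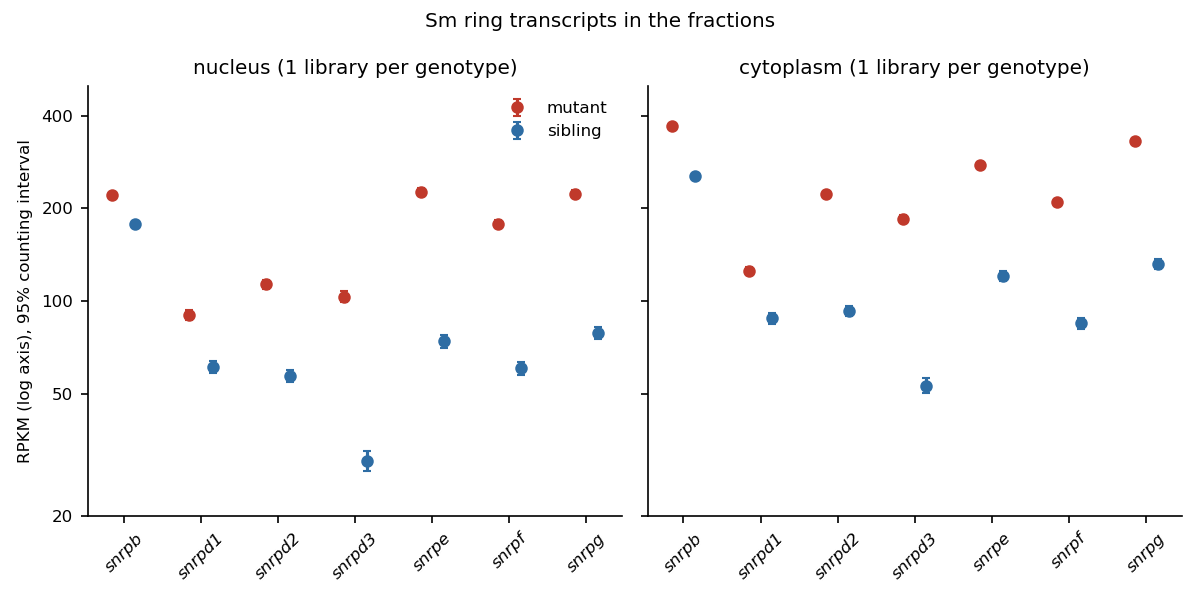
RPKM of the ring transcripts (vertical log axis) in the nuclear and cytoplasmic libraries of mutants and siblings, 1 library each, with 95% counting intervals, most of them about the size of the points. Each mutant point lies above its sibling point, in the nucleus with snrpb nearest (220 RPKM in mutants, 178 RPKM in siblings) and snrpd3 farthest (103 RPKM in mutants, 30.2 RPKM in siblings).

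Between compartments, every member had less RPKM in the nucleus than in the cytoplasm of the same genotype as deposited. The log2 ratio of nucleus to cytoplasm ran between -0.97 for snrpd2 and -0.23 for snrpf in mutants, and between -0.79 for snrpd3 and -0.48 for snrpf in siblings. The median over the members was -0.57 in mutants and -0.70 in siblings, where the median over all genes was -1.06 in mutants and -0.22 in siblings. The direction in mutants depended on the scaling: the members' median was 0.57 when scaled by listed reads and 0.96 by TMM, while in siblings it was -0.36 and -0.43.

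A paralogue of snrpd3, snrpd3l, is no member and was added after its values were seen. Reads could be split between the copies if their sequences are close, which was not checked. It stood at 112 and 52.1 RPKM in mutants, 86.5 and 40.1 RPKM in siblings and 60.3 and 35.7 RPKM in controls. Its log2 fold change was 0.41 against siblings (adjusted p = 0.180, edgeR) and 0.70 against controls (adjusted p = 0.0647), neither past the threshold. The RPKM ratio of snrpd3 to snrpd3l was 2.05 and 2.68 in mutants, 0.938 and 0.902 in siblings and 0.755 and 0.548 in controls. In the fractions it was 1.86 in the mutant nucleus and 0.743 in the sibling nucleus, and 2.29 in the mutant cytoplasm and 0.892 in the sibling cytoplasm.

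Genes that assemble, modify or transport the ring were set beside the members, in mutants against siblings. For scale, 2359 of all 10147 genes tested had an unadjusted p under 0.05 in the edgeR fit. DESeq2 passed 1198 of all genes, 617 of them as higher. Of 7 tested genes of the SMN complex, which loads the ring onto RNA, 0 passed in edgeR (1 had an unadjusted p under 0.05, and DESeq2 passed 1 as lower), with a median log2 fold change of -0.13. That one was gemin7, a Gemin protein of the complex, at -1.34 (adjusted p = 0.0586). Of 5 genes of the arginine methylation machinery, 0 passed in edgeR or DESeq2 (1 had an unadjusted p under 0.05 in edgeR), with a median of -0.17. The one was clns1a, the chaperone that holds Sm proteins before assembly, at -0.43 (adjusted p = 0.169). Of 6 genes of snRNP transport and cap modification, 0 passed in edgeR (3 had an unadjusted p under 0.05, and DESeq2 passed 2 as higher), with a median of 0.31. Among them snupn, the import adaptor that binds the modified cap, was at 0.92 (adjusted p = 0.0513), the Cajal body scaffold coil at 0.73 (adjusted p = 0.125) and the import receptor kpnb1 at -0.40 (adjusted p = 0.132).

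The related LSm ring, which sits on U6 RNA or on messenger RNA under decay, differed among its genes. Of 6 tested, 1 rose, lsm7, which stood at 244 and 246 RPKM in mutants, 66.0 and 54.6 RPKM in siblings and 32.1 and 38.8 RPKM in controls (log2 2.06, adjusted p = 0.0122, edgeR). The values of lsm4 (0.93, adjusted p = 0.0754), lsm6 (0.52, adjusted p = 0.156) and lsm2 (-0.78, adjusted p = 0.0668) did not pass in edgeR, and the median of the list was 0.18. In the list 4 genes had an unadjusted p under 0.05, and DESeq2 passed 2 as higher and 1 as lower. Against controls 3 of the 6 rose and 0 fell in edgeR, where 1.91% of all genes rose. They were lsm7, lsm4 (log2 1.29, adjusted p = 0.0361) and lsm6 (1.18, adjusted p = 0.0364). The median of the list against controls was 0.75.

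Proteins particular to the particles that carry the ring were counted in the same way. Of 3 U1 proteins 0 passed in edgeR or DESeq2, and 0 had an unadjusted p under 0.05, with log2 fold changes of 0.05 to 0.23. Of 11 U2 proteins 4 rose and 0 fell in edgeR (8 had an unadjusted p under 0.05, and DESeq2 passed 8 as higher), with a median of 0.90: sf3a2 (log2 1.80, adjusted p = 0.0122), sf3a3 (1.33, adjusted p = 0.0197), sf3b4 (1.05, adjusted p = 0.0421) and snrpa1 (0.91, adjusted p = 0.0352). The first 3 belong to the SF3 complexes that hold U2 at the branch point, and snrpa1 binds U2 RNA. Of 8 U5 proteins 4 rose and 1 fell, eftud2 itself, in edgeR and in DESeq2 alike (5 had an unadjusted p under 0.05), with a median of 0.76. Those that rose and were named by the rule were the helicase genes ddx23 (log2 1.91, adjusted p = 0.0122) and snrnp200 (1.73, adjusted p = 0.0285) and the core scaffold gene prpf8 (1.27, adjusted p = 0.0431).

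Of 10 proteins of the U4/U6 particle and the tri-snRNP, into which U5 joins, 8 rose and 0 fell in edgeR and in DESeq2 alike (8 had an unadjusted p under 0.05), with a median of 1.71. They included prpf3 (log2 2.38, adjusted p = 0.0122), prpf31 (2.27, adjusted p = 0.0122), snrnp27 (2.06, adjusted p = 0.0139) and sart1 (1.72, adjusted p = 0.0122). Of 7 proteins of the minor U11/U12 particle 0 passed in edgeR (2 had an unadjusted p under 0.05, and DESeq2 passed 1 as higher and 1 as lower), with a median of -0.22; zmat5 was at 0.99 (adjusted p = 0.0602) and snrnp25 at -1.45 (adjusted p = 0.0928). Against controls in edgeR, 7 of 11 U2, 8 of 10 U4/U6 and tri-snRNP and 1 of 6 transport genes rose. Of the 8 U5 genes 4 rose and 1 fell there. The SMN, methylation, U1 and U11/U12 lists had 0 that rose, where 1.91% of all genes did. These lists were drawn with earlier results of these data known, and their differences from the ring genes were not tested. Without the replicate term none of their genes passed, as no gene did.

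**Figure D5:**
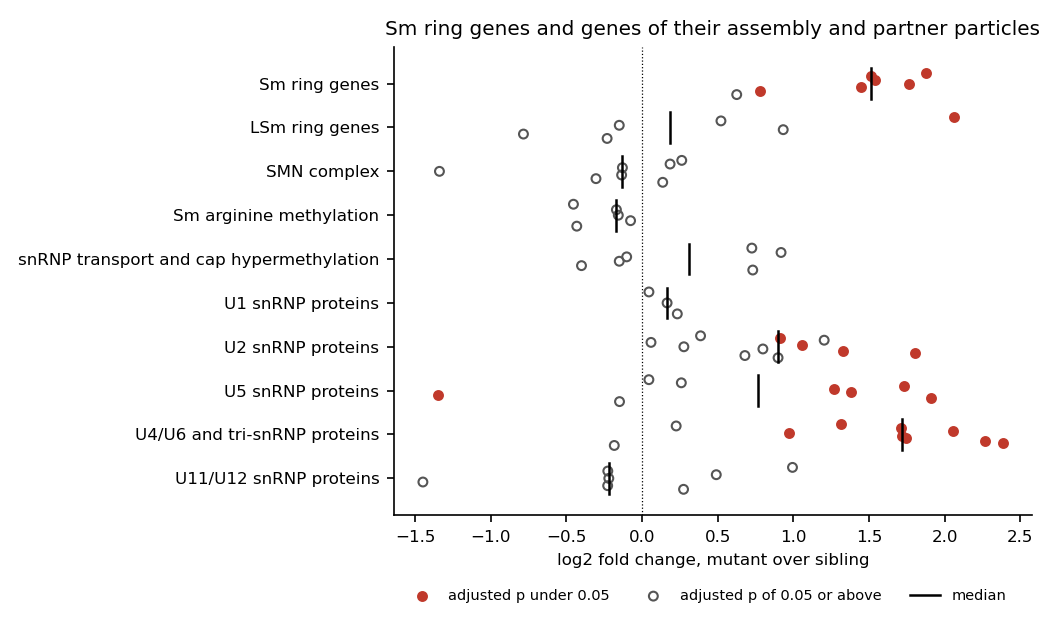
Fitted log2 fold change, mutants over siblings (horizontal axis), of each tested gene in the ring and in 9 related lists; filled points passed an adjusted p of 0.05, open points did not, and vertical bars mark medians. The medians lie at 1.51 for the Sm ring, 1.71 for the U4/U6 and tri-snRNP list and 0.90 for U2, and between -0.22 and 0.31 for the LSm, SMN, methylation, transport, U1 and U11/U12 lists.

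The genes with the profile most like the ring were sought by Pearson correlation with the mean ring profile, over the 6 whole-embryo libraries on the log2 scale, centred within each replicate number. The 5 highest were ehd1a (r = 0.9996), znf593 (r = 0.9991), sf3a3 (r = 0.9989), zgc:123180 (r = 0.9987) and ptpmt1 (r = 0.9984). With so few libraries 82 genes outside the ring had an r above 0.99, and likeness of profile did not mean likeness of size: ehd1a, an endocytic protein gene, had a log2 fold change of 0.50 against siblings (adjusted p = 0.0916, edgeR). Among the members themselves r with the mean profile was 0.99997 for snrpd2 and 0.960 for snrpb, and 418 other genes were nearer to the ring's mean profile than snrpb was. Each member is part of that mean, so its r is not on a par with that of genes outside the ring.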

How the data were processed

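Per the submitters' processing notes, the authors used TopHat2 2.0.8 and danRer7. The read counter and the annotation are not given in the sources used here. The deposited tables give, per transcript record, a read count and an RPKM (reads scaled to transcript length and to a library total). Each deposited RPKM equals the count divided by the listed length and by 1 total per library. All 15865 records were read, and the record with most reads was kept for each symbol. Depth is given with the results; intervals and counts cover counting error only.

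Counts were fitted with edgeR 4.0.16 in R 4.3.3 (quasi-likelihood, TMM scaling, group and replicate number as terms, all 6 whole-embryo libraries) for 10147 genes with mean RPKM of 1 or more. P-values were adjusted by Benjamini-Hochberg over all of them. Deviations of same-numbered libraries from their group means correlated at 0.722 to 0.872 over genes, so libraries of the same number deviate together. That correlation cannot tell samples paired at collection from a difference common to all libraries of a number. The whole-embryo libraries numbered 1 had 54.2% to 58.7% of the authors' total reads in listed records, and those numbered 2 had 31.6% to 33.7%. The deposited records of the whole-embryo libraries numbered 1 and 2 also differed in format. What else a number shares, and whether libraries came from separate clutches, the labels do not say. The p-values cover only the spread among these libraries, which may be technical. The replicate term was put in the main fit, and the members, lists and naming rule were chosen, with earlier results of these data known, including that the fit without the term passed no gene; the results of both fits are therefore printed. Alternatives used DESeq2 1.42.0 and limma 3.58.1, other scalings, filters and pseudocounts, and fits without each library. Fractions were compared as log2(RPKM + 1) for 8631 genes with mean RPKM of 1 or more in the 4 libraries.

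Counts were simulated for mutants against siblings (10147 genes, 200 changed). The fit with the replicate term recovered 43.5% of 2-fold and 99.5% of 4-fold changes, with 4 and 15 false calls. The fit without it recovered 0 in either case. The simulated counts held the replicate effect of these libraries and the spread estimated with the replicate term. The figures thus favour the fit with that term by design, and they do not decide which fit suits the real libraries. All 7 members were named; of each list up to 4 genes with the smallest p were named, here those with an unadjusted p under 0.05, and the 5 genes most like the ring. Gene names missing from the tables were matched through the RefSeq gene table (assembly GRCz12tu, names only). A planned promoter motif search was not run, and no sequence was used here.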

Additional observations from a re-analysis of the deposited data

Results flagged for a closer look

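The position of the ring transcripts between nucleus and cytoplasm, relative to all genes, pointed in opposite directions in mutants and siblings. The median log2 ratio of nucleus to cytoplasm over the 7 members, minus the median over all 8631 genes, was 0.49 in mutants and -0.48 in siblings. All 7 members were above the median of all genes in mutants and all 7 below it in siblings. The difference was not tested, since each genotype has 1 library per fraction. With a pseudocount of 5 in place of 1, the mutant value was -0.04, with 3 of 7 members above the median, and the sibling value was -0.53. With TMM scaling the mutant value was 0.91 and the sibling value -0.43. The mutant nuclear library had 19.2% of the authors' total reads in listed records, the lowest of the 10 libraries.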

How the results depend on the processing

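Calls changed more than fold changes. Without the replicate term edgeR passed 0 genes and 0 members in each comparison (unadjusted p under 0.05: 534, 667 and 100 genes in mutants against siblings, mutants against controls and siblings against controls). DESeq2 passed 1198, 1721 and 98 genes in that order, and 2 members in siblings against controls. In mutants against siblings limma passed 272 genes with a pseudocount of 1 and 282 with 0.1; fits of only the libraries compared passed 2251 genes there, and 49 genes with 3 members in mutants against controls. Leaving out 1 library gave 0 to 2232 genes and 0 to 7 members in mutants against siblings, 7 to 2374 genes and 0 to 7 members in mutants against controls, and 0 to 412 genes and 0 to 2 members in siblings against controls. The members' median in mutants against controls was 1.88 with mean RPKM of 5 or more, 1.87 with limma and a pseudocount of 5, and 1.81 to 1.95 without 1 library. The 21 member log2 fold changes kept their sign in all alternatives, other than that of snrpb in siblings against controls. That value was -0.006 without the second control library and at most 0.317 without any other. The redistributed share of the ring sum was 15.1% in reads in place of RPKM, and 13.2% and 13.5% without 1 replicate number, an alternative added after seeing the data. The nucleus to cytoplasm median was 0.57 in mutants and -0.36 in siblings with listed reads, and 0.96 in mutants and -0.43 in siblings with TMM. The causes were not tested. Fits without 1 library leave 1 residual degree of freedom, and a lone library is assumed to vary like the others. With 2 libraries per group, changes of about 2-fold were often missed in simulation.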
